A study of Mus musculus with 9 samples.

Results

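Gene expression was compared between lungs taken 24 h after an injection of tumour exosomes and control lungs. The comparison used every array that the labels place in these 2 groups, 3 of lungs at 24 h and 3 of control lungs, which made 6 of the 9 arrays of the series. The mice were C57BL/6 throughout. Those of the 24 h group had been given 10 µg of exosome protein, prepared from the mouse melanoma line B16-F10, into the tail vein. The remaining 3 arrays held lungs taken 48 h after the same dose and are set beside the 24 h values. The sources used here do not say how the control mice were treated. According to the labels, each time point had 3 mice, the experiment was run in triplicate and the arrays are biological replicates. Pooling of mice is not described, so the p-values measure only the spread between these samples.

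Exosomes are membrane vesicles of endosomal origin that carry proteins, lipids and RNA between cells. B16-F10 is a line that readily forms tumours in the lung from the blood, and vesicles given by vein meet the capillary bed of the lung early. The lung is a mixture of alveolar epithelium, which makes surfactant or exchanges gas, of airway epithelium, endothelium, stroma and resident and circulating leukocytes. Whole-lung RNA can also hold RNA of what is dissected with the lung, such as heart muscle around the pulmonary veins and fat of the mediastinum. In such bulk RNA, fewer cells of a type and less RNA per cell cannot be told apart.

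Levels are given as log2 of the deposited signal intensity after an offset of 16 and quantile normalisation, and differences are 24 h minus control on that scale. A pair is the 24 h array and the control array with the same replicate number, and values listed by array or by pair follow replicates 1, 2 and 3. Arrays with the same number deviated together from their group means (correlations of 0.655, 0.373 and 0.348 for the 3 pairs, across probe sets). Replicate 1 stood apart most clearly. The 24 h array of replicate 2 also deviated with control replicate 3 (0.312), so the data separate replicates 2 and 3 less well. Present calls were alike and covered 69.9% to 72.1% of probe sets at 24 h and 71.5% to 72.6% in control lungs. The log2 ratio of the 3′ to the 5′ probe set of Gapdh varied more at 24 h. It ran from -0.40 to -0.07 at 24 h and from -0.25 to -0.22 in control lungs. The authors' table for the whole series carries other labels for the same values: its 24 h columns hold the control files and its control columns hold the 48 h files. Names written inside the sample files match the labels of the samples, and all directions below follow those labels.

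No probe set passed the test between 24 h and control. Of 15705 probe sets tested with limma, representing 9196 genes, 0 (0%) had an adjusted p under 0.05, and the lowest was 0.999. An unadjusted p under 0.05 was reached by 542 probe sets (3.45%), 228 higher and 314 lower at 24 h, and by 2.88% of genes. The 24 h and control values did not overlap for 607 probe sets (3.87%), 309 of them higher at 24 h (1.97%) and 298 lower (1.9%). Without quantile normalisation that split was 257 higher and 375 lower. Most differences were small. The 1st to 99th percentile of the differences ran from -0.37 to 0.34, and 7 probe sets differed by more than 2-fold. In the model with replicate number, the 95% interval of the fold change lay within 1.5-fold in either direction for 8561 of the 9196 genes (93.1%). It lay within 2-fold for 9132 (99.3%). Because no gene passed, the genes below are given by their values, and none is reported as changed.

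**Figure D1:**
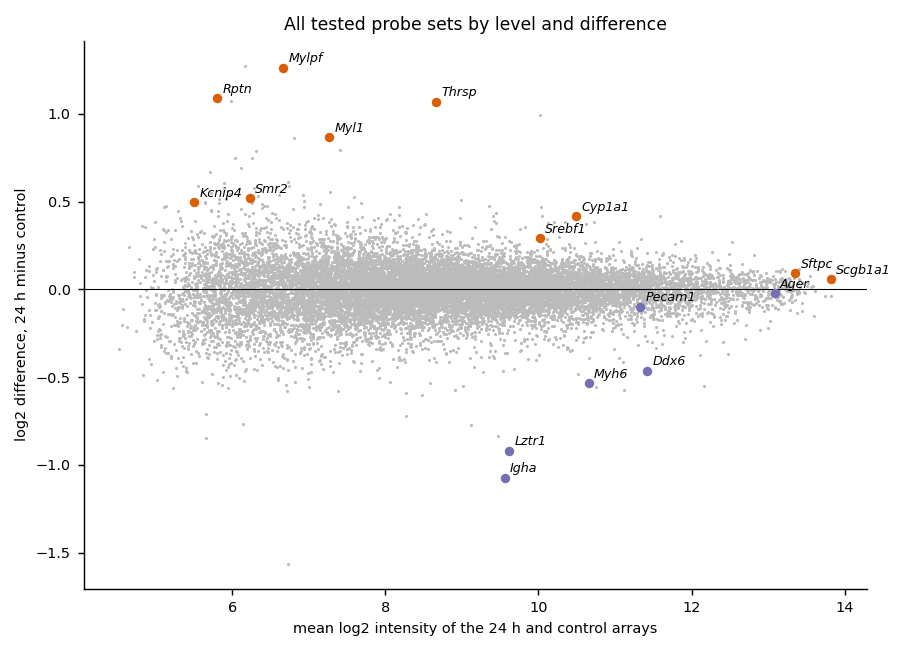
Mean level of each of the 15705 tested probe sets on the 6 arrays (x axis, log2 intensity) against its log2 difference, 24 h minus control (y axis). Grey points are all tested probe sets, orange points are named genes above 0 and purple points named genes below 0. Most points lie close to 0, and Thrsp (1.07) and Igha (-1.07) stand apart at intermediate levels.

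Genes that define the lung differed little between the groups, and their arrays overlapped. Sftpc, the surfactant protein C gene of alveolar type 2 cells, measured 13.26, 13.49 and 13.45 at 24 h and 13.19, 13.37 and 13.36 in control lungs. Its fold change was 1.07-fold (95% interval 0.947 to 1.2). Ager, the receptor that marks alveolar type 1 cells, measured 12.99, 13.07 and 13.16 at 24 h and 12.95, 13.07 and 13.27 in control lungs, and Scgb1a1, the secretoglobin of club cells, measured 13.73, 13.96 and 13.85 at 24 h and 13.73, 13.78 and 13.85 in control lungs. The groups overlapped for all of these genes. For Scgb1a1 the equal values within replicates 1 and 3 come from quantile normalisation, which gives equal ranks equal values. Its deposited signal was 12320, 18506 and 15360 units at 24 h and 11259, 14630 and 15127 units in control lungs. The median difference was 0.000676 over 11 type 2 and surfactant genes and -0.0054 over 8 type 1 genes, against 0.0016 over all genes. Over all alternatives these medians ran from -0.00797 to 0.0258 for type 2 cells and from -0.0445 to 0.0504 for type 1 cells. Among 19 endothelial genes the median was -0.0437. The adhesion molecule Pecam1 stood at 0.934-fold (95% interval 0.779 to 1.12) and its difference was 0.014 without control replicate 2. Vegfa, the endothelial growth factor made by alveolar epithelium, measured 10.91, 10.20 and 11.41 at 24 h and 10.99, 11.00 and 11.24 in control lungs. The other Vegfa probe set differed by 0.06. Rtkn2, a type 1 cell gene, stood at 0.849-fold (95% interval 0.704 to 1.02). Cdh5, the cadherin of endothelial junctions, stood at 0.898-fold (95% interval 0.775 to 1.04). These lung markers were bright on all 6 arrays. Of 14 listed melanocyte genes, markers of the cells that made the exosomes, 3 passed the detection filter, 1 of them above 0, with a median of -0.117. Of the 8 others on the array, 5 were detected on 0 of the 6 arrays, among them Dct, an enzyme of melanin synthesis. By its most often detected probe set, Oca2 was detected on 4 arrays, Tyr on 2 and Tyrp1 on 1.

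Among genes with all 3 pairs higher at 24 h, the largest difference was that of Thrsp, a nuclear protein induced by thyroid hormone and feeding that promotes fatty acid synthesis in liver and fat. Its signal was 9.76, 9.06 and 8.75 at 24 h and 9.13, 7.57 and 7.66 in control lungs. Replicate 1 was high in both groups, so the groups overlapped, while each 24 h array lay above its own control by 0.64, 1.49 and 1.08. The fold change was 2.1-fold (95% interval 1.43 to 3.08), with an unadjusted p of 0.00216 in limma. The second probe set of Thrsp measured 8.07, 7.96 and 7.38 at 24 h and 7.50, 6.76 and 6.77 in control lungs, a fold change of 1.73-fold (95% interval 1.36 to 2.21). Both probe sets were higher in all 3 pairs. Cyp1a1, a cytochrome P450 that the aryl hydrocarbon receptor induces and that lung endothelium can express, measured 11.50, 10.35 and 10.25 at 24 h and 10.98, 10.03 and 9.83 in control lungs. Here too replicate 1 was high in both groups, and the pairs differed by 0.52, 0.32 and 0.42. The fold change was 1.34-fold (95% interval 1.13 to 1.58).

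The promoters of these 2 genes are shown because both genes were higher in every pair and replicate 1 was high in both groups for each. The sequences are the 250 bases upstream of the transcription start, read in the direction of the gene, from RefSeq on GRCm38.p6. In Thrsp (chr7:97417551-97417800, minus strand) the capitals mark CCAAT, the box bound by nuclear factor Y, and its reverse complement ATTGG. In Cyp1a1 (chr9:57697363-57697612, plus strand) the capitals mark GCGTG, the core of the element bound by the aryl hydrocarbon receptor with its partner Arnt.
Thrsp: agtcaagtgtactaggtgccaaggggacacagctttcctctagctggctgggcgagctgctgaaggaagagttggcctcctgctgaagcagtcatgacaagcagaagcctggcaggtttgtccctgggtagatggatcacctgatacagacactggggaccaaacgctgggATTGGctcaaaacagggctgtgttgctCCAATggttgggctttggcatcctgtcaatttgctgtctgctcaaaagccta
Cyp1a1: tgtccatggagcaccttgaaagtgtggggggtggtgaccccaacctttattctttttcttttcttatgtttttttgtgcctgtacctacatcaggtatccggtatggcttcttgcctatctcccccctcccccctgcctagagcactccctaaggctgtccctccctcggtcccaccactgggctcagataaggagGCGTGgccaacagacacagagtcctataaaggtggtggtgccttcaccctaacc
Thrsp held 2 matches in this window, 1 on each strand, with first bases at -79 and -52 from the start. Cyp1a1 held 1 match, on the strand shown, at -54. Searched on both strands, CCAAT was present in 33.8% of the 32851 promoter windows of this length and GCGTG in 28.2%, so either match is a common feature. Neither motif contains the other, and a match says nothing of whether a factor was bound in these lungs.

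Other genes with the highest moderated t were mostly of low to middle signal. Kcnip4, a protein that binds potassium channels, measured 5.62, 5.82 and 5.83 at 24 h and 5.13, 5.30 and 5.34 in control lungs with pair differences of 0.49, 0.51 and 0.49. It had the smallest unadjusted p of all probe sets (0.000298). Smr2, a secreted protein known from the submandibular gland, stood at 1.43-fold (95% interval 1.23 to 1.67) and Alb, the serum albumin gene, at 1.33-fold (95% interval 1.12 to 1.59), both likewise dim. Trgv4, a variable segment of the T cell receptor gamma chain, stood at 1.43-fold (95% interval 1.16 to 1.76) and had no overlap between the groups, as Kcnip4, Smr2 and Alb had none. Zfp81, which encodes a zinc finger protein, stood at 1.39-fold (95% interval 1.15 to 1.67), but it passed the detection filter through the 24 h arrays alone, being detected on 2 of the 3 control arrays. Smr2 passed through the control arrays alone. Fam81a stood at 1.53-fold (95% interval 1.22 to 1.92), with pair differences of 0.68, 0.78 and 0.38.

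Of the brighter genes, Rbmx, an RNA-binding protein of the spliceosome, measured 8.55, 8.80 and 8.90 at 24 h and 8.16, 8.40 and 8.40 in control lungs, but its other probe sets differed by 0.07 and -0.09. Mrpl15, of the large mitochondrial ribosomal subunit, measured 9.45, 9.96 and 9.57 at 24 h and 9.12, 9.29 and 9.25 in control lungs, and its 4 other probe sets differed by 0.08, -0.06, -0.02 and 0.15. For both genes the brightest probe set alone separated the groups. Chchd3, which shapes the inner mitochondrial membrane, stood at 1.16-fold (95% interval 1.03 to 1.32) and Slc25a39, a mitochondrial carrier of glutathione, at 1.21-fold (95% interval 0.992 to 1.47). The other probe sets of Slc25a39 differed by -0.12 and 0.02. Med30, a subunit of the Mediator complex, measured 10.26, 10.24 and 10.24 at 24 h and 10.07, 9.94 and 10.01 in control lungs, and the interferon-stimulated exonuclease Isg20 measured 9.75, 9.76 and 9.82 at 24 h and 9.56, 9.42 and 9.54 in control lungs. Arrays within each group were tight for these last genes, and the groups did not overlap.

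**Figure D2:**
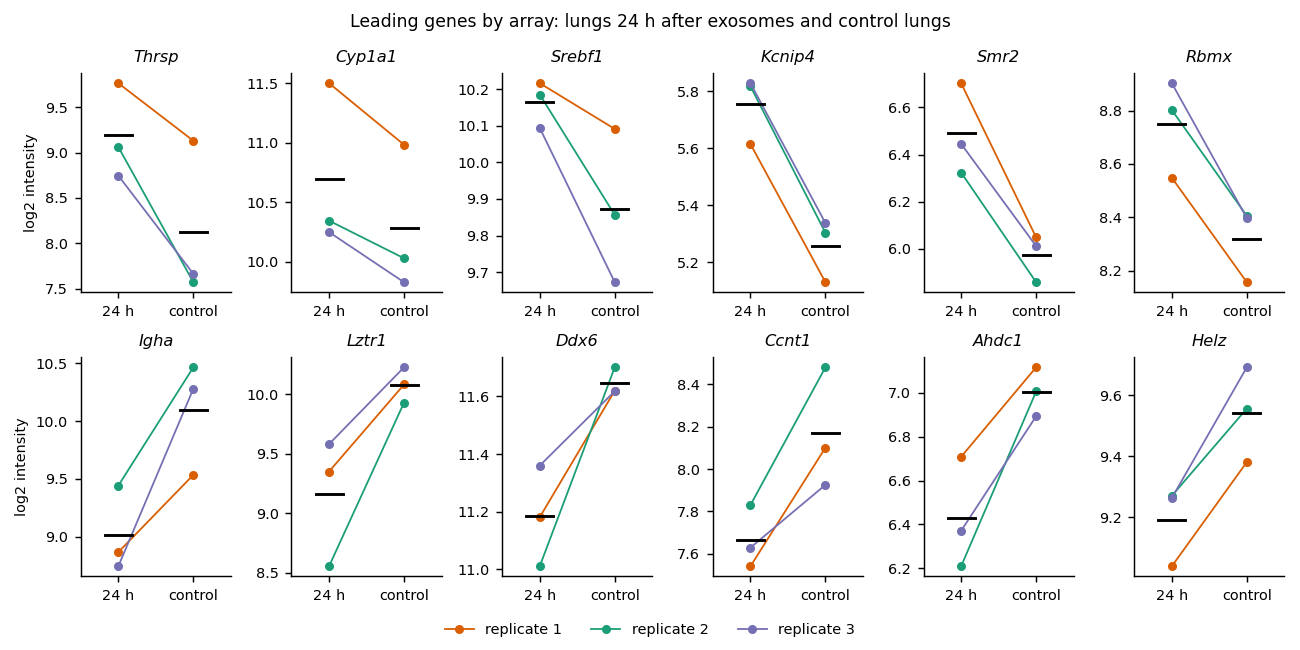
Log2 intensity of 12 genes on each array, 24 h on the left and control on the right of each panel. Lines join arrays with the same replicate number and black bars are group means; axes differ between panels. In the upper row each 24 h array lies above its own control and in the lower row below it, and for Thrsp and Cyp1a1 replicate 1 is the highest array of both groups.

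Among genes with all 3 pairs lower at 24 h, the largest difference was that of Igha, the constant region of immunoglobulin A, the antibody class that plasma cells of mucosal surfaces secrete. It measured 8.87, 9.44 and 8.75 at 24 h and 9.54, 10.46 and 10.28 in control lungs, with no overlap, and the pairs differed by -0.67, -1.02 and -1.53. The fold change was 0.475-fold (95% interval 0.338 to 0.668), with an unadjusted p of 0.00107 in limma. A second Igha probe set measured 8.69, 9.60 and 8.86 at 24 h and 9.32, 10.23 and 10.11 in control lungs; the remaining one measured 8.25, 9.28 and 8.66 at 24 h and 8.89, 9.99 and 9.63 in control lungs. All of the probe sets were lower in every pair, although the groups overlapped for these other 2. Sequences shared between immunoglobulin genes can let their probe sets read one another's transcripts, so the probe sets are not independent. Igkv8-30, a kappa light chain variable segment named after its values were seen, stood at 0.68-fold (95% interval 0.483 to 0.957) with pair differences of -0.996, -0.10 and -0.57.

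Other genes of the B lineage had no common direction. Over 15 B cell and immunoglobulin genes the median difference was 0.0041, 8 genes were above 0, and 0 were of one sign in all 3 pairs, against 11.2% of all genes higher and 10.5% lower in all pairs. The pair medians were 0.264, -0.097 and -0.154, and the median ran from -0.112 to 0.0679 over all alternatives. Cd79a, a signalling chain of the B cell receptor, measured 8.57, 8.57 and 8.72 at 24 h and 8.31, 9.27 and 8.91 in control lungs, and its difference of -0.21 was 0.068 without 24 h replicate 2. Jchain, which joins IgA and IgM into polymers, measured 7.62, 9.38 and 7.14 at 24 h and 9.02, 7.92 and 7.68 in control lungs, with pairs of opposite sign. Its difference without single arrays ran from -0.85 to 0.46.

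Among other genes with the lowest moderated t was Ddx6, an RNA helicase of processing bodies. It measured 11.18, 11.01 and 11.36 at 24 h and 11.62, 11.70 and 11.62 in control lungs, a fold change of 0.726-fold (95% interval 0.62 to 0.85) with no overlap. Its other probe sets differed by 0.18 and -0.04, so they did not show it. Lztr1, an adaptor that directs RAS proteins to ubiquitination, measured 9.35, 8.55 and 9.58 at 24 h and 10.08, 9.93 and 10.23 in control lungs, a fold change of 0.529-fold (95% interval 0.387 to 0.724), and its other probe set differed by 0.03. Ccnt1, the cyclin of the elongation factor P-TEFb, stood at 0.706-fold (95% interval 0.607 to 0.821). Helz, a helicase with a zinc finger, stood at 0.784-fold (95% interval 0.693 to 0.887) and its other probe set differed by -0.03. Ahdc1 stood at 0.671-fold (95% interval 0.549 to 0.82), and the DNA methyltransferase Dnmt3b at 0.785-fold (95% interval 0.691 to 0.891). Adnp2, a zinc finger homeobox protein, and Ncapd2, a condensin subunit, were lower in all pairs (-0.27, -0.59 and -0.45 for Adnp2, and -0.23, -0.37 and -0.41 for Ncapd2) with overlapping groups.

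The largest differences among bright genes with no overlap and all pairs of one sign included further genes with no common role. Cdip1, a p53 target tied to cell death, measured 9.42, 9.28 and 9.35 at 24 h and 9.09, 8.98 and 8.91 in control lungs, and its other probe set differed by 0.01. Gng10, a gamma subunit of G proteins, had pair differences of 0.39, 0.17 and 0.15 and Etfbkmt, which methylates the electron transfer flavoprotein, of 0.25, 0.36 and 0.08. Lower at 24 h were Chst1, a sulfotransferase that modifies keratan sulfate, with pair differences of -0.42, -0.17 and -0.49, and Adamtsl4, a microfibril-associated protein, with -0.36, -0.48 and -0.31. Mettl7a2 measured 10.02, 10.35 and 10.44 at 24 h and 10.96, 10.63 and 10.66 in control lungs. For Psmc4, an ATPase of the proteasome, and Tle4, a transcriptional corepressor, pair 2 was the largest (-0.03, -0.89 and -0.24 for Psmc4, and -0.03, -0.98 and -0.20 for Tle4). Their other probe sets differed by 0.03 and by 0.30, opposite in sign. The zinc finger gene Nfx1 stood at 0.783-fold (95% interval 0.658 to 0.933), with its other probe set at -0.02. Gm6958, a predicted gene with low signal, had the lowest moderated t of all genes and pair differences of -0.29, -0.57 and -0.69, and its other probe set differed by -0.13, with pair differences of 0.29, -0.05 and -0.63.

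Probe sets of one gene can be set beside each other within the arrays, a view chosen after the values were seen. Of 3482 genes with at least 2 tested probe sets, 43 had every probe set higher in all pairs and 35 had every probe set lower. Of all single probe sets, 10.9% were higher and 10.8% lower in all pairs. The number expected from unlinked probe sets was not computed, so these counts alone do not show agreement between probe sets. Thrsp was among the first and Igha among the second. A single gene, 1110008P14Rik, had non-overlapping, higher values with every probe set, and 0 genes had non-overlapping, lower values with every probe set.

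Genes of fat storage and lipid synthesis were mostly above control, in 2 pairs more than in the first. Of 18 tested adipocyte genes 16 were above 0, against 50.6% of all genes, and 4 were higher in all pairs, against 11.2%. Their median difference was 0.178, with pair medians of -0.0195, 0.34 and 0.0779. Without single arrays the median ran from 0.0708, without control replicate 2, to 0.219, without control replicate 1. Cidea, a lipid droplet protein of brown and beige fat, measured 6.74, 6.00 and 6.24 at 24 h and 6.59, 5.60 and 5.84 in control lungs. The adipokine genes Adipoq and Retn differed between pairs, by -0.31, 0.35 and 0.69 for Adipoq and by -0.24, 0.65 and 0.89 for Retn. Retn passed the detection filter through the 24 h arrays alone, being detected on 1 of the 3 control arrays. Replicate 1 of both groups was high in Adipoq and the control array was the higher one. These 2 are defining markers of fat cells, and their part in the differences of Thrsp and Cidea was not tested.

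The named lipid genes that are not restricted to fat were also above control, by less than Thrsp. Srebf1, the transcription factor that drives genes of fatty acid synthesis, measured 10.22, 10.19 and 10.09 at 24 h and 10.09, 9.86 and 9.67 in control lungs, a fold change of 1.22-fold (95% interval 1.05 to 1.42) with no overlap. Slc27a1, a fatty acid transporter, was very even over the pairs (0.32, 0.36 and 0.31). Lpin1, a phosphatidate phosphatase, stood at 1.21-fold (95% interval 0.98 to 1.5), though its other probe set differed by 0.06. Dgat2, which completes triglyceride synthesis, stood at 1.13-fold (95% interval 0.978 to 1.31) and Me1, malic enzyme, at 1.1-fold (95% interval 0.928 to 1.31). Their other probe sets differed by 0.20 for Dgat2 and 0.27 for Me1. Both genes were named after their values were seen. Over 21 genes of cholesterol synthesis and transport the median was 0.0735, with 15 above 0, and over all alternatives it ran from -0.0274 to 0.129, turning below 0 without 24 h replicate 1 or control replicate 2. Among them the exporter Abcg1 had pair differences of 0.08, 0.19 and 0.22 and Nsdhl, a sterol dehydrogenase, of 0.15, 0.08 and 0.18.

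Detoxification genes were above control in 22 of 28 cases, against 50.6% of all genes, with a median of 0.0457 and pair medians of -0.0187, 0.184 and 0.0255. Without 24 h replicate 2 the median was -0.00447. Cyp1a1 was the 1 gene of these 28 with an unadjusted p under 0.05, against 2.88% of all genes. Other genes that the aryl hydrocarbon receptor is known to induce gave smaller differences. Cyp1b1 stood at 1.18-fold (95% interval 0.963 to 1.44) with pair differences of -0.01, 0.57 and 0.15, while its dimmer probe set differed by -0.07. Tiparp, a mono-ADP-ribosyltransferase named after its values were seen, had pair differences of -0.14, 0.35 and 0.40. Gclc, which makes the first step of glutathione synthesis, stood at 1.17-fold (95% interval 0.98 to 1.41), and its other probe set differed by -0.10. Replicate 2 gave the largest pair difference for Cyp1b1 and Gclc, and replicate 1 that for Cyp1a1.

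**Figure D3:**
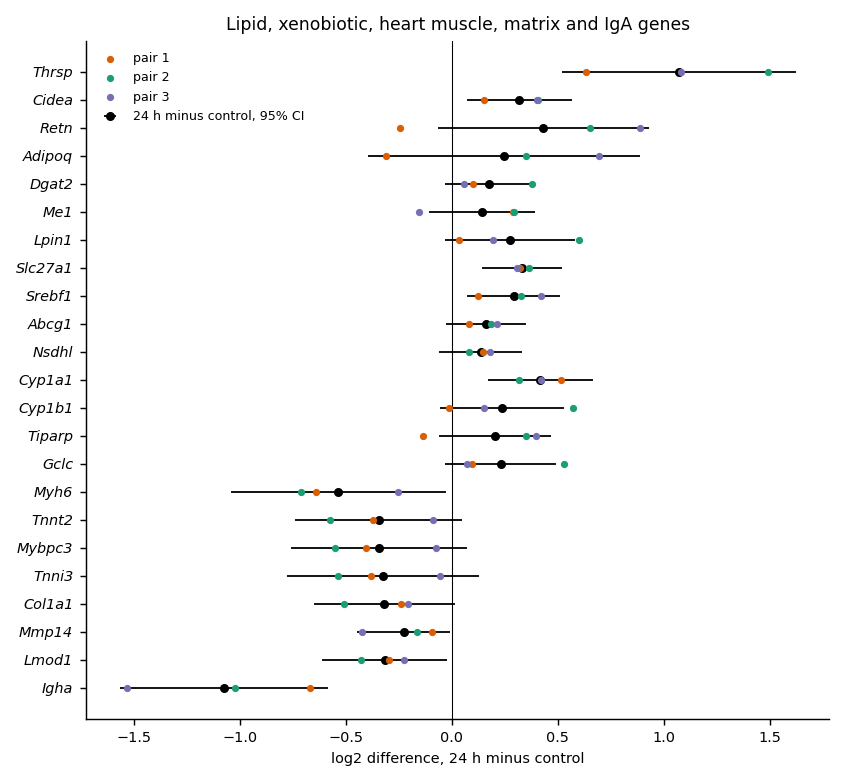
Log2 difference, 24 h minus control, of lipid genes, of genes of the xenobiotic response, of heart muscle and matrix genes and of Igha (x axis). Black points with bars are the limma estimates with their 95% intervals and coloured points are the differences of the 3 pairs. Intervals of Thrsp, Cyp1a1 and Igha do not reach 0, and those of Adipoq, Retn and most heart muscle genes do.

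Heart muscle genes were below control in most cases. Of 21 tested genes 20 were below 0, while 50.6% of all genes were above 0. In all pairs 6 were lower, against 10.5% of all genes, and 2 had non-overlapping, lower values, against 1.79%. The median was -0.229, but the pair medians were -0.202, -0.505 and 0.0347, so pair 3 did not show it. Without 24 h replicate 2 the median was -0.0565 and without 24 h replicate 3 it was -0.456. The summed signal of the list was 18843, 15040 and 14860 units on the 24 h arrays and 22242, 21080 and 14386 units on the control arrays. Myh6, the atrial and adult ventricular myosin heavy chain of mice, measured 10.34, 10.45 and 10.37 at 24 h and 10.98, 11.16 and 10.63 in control lungs. Its fold change was 0.691-fold (95% interval 0.486 to 0.982). The troponin T gene Tnnt2 had pair differences of -0.37, -0.58 and -0.09 and its other probe set of -0.47, -0.32 and -0.02. Mybpc3, the cardiac myosin-binding protein C, measured 7.28, 7.37 and 7.49 at 24 h and 7.68, 7.92 and 7.56 in control lungs, with no overlap. The troponin I gene Tnni3 had pair differences of -0.38, -0.53 and -0.05. Control replicate 3 was the lowest control array for each of these genes.

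Smooth muscle and matrix genes were also mostly below 0, by less. In smooth muscle 2 of 13 genes were above 0, against 50.6% of all genes, and the median was -0.0988. Lmod1, a leiomodin that nucleates actin filaments, was lower in all pairs (-0.30, -0.43 and -0.22). Of 30 genes of the extracellular matrix and its remodelling 8 were above 0, with a median of -0.037. Col1a1, the main chain of type I collagen, measured 9.51, 9.32 and 9.32 at 24 h and 9.75, 9.83 and 9.52 in control lungs with no overlap, and its other probe set had pair differences of 0.02, -0.57 and -0.47. The collagen cross-linking enzymes differed in sign: Loxl4 stood at 1.3-fold (95% interval 1.07 to 1.57) with its other probe set at a difference of 0.05, Loxl3 at 0.834-fold (95% interval 0.717 to 0.97) and Lox at 1.05-fold (95% interval 0.906 to 1.23). The other Lox probe set differed by -0.02. Loxl4 was detected on 1 of the 3 control arrays and passed the filter through the 24 h arrays alone. Mmp14, a membrane-bound metalloproteinase, stood at 0.855-fold (95% interval 0.735 to 0.995).

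Several of the largest differences came from 1 array. Myl1, Rptn and Krt5 are named because of their values, as Jchain was above. Mylpf, a myosin light chain of fast skeletal muscle, measured 9.39, 6.40 and 6.09 at 24 h and 5.93, 6.02 and 6.15 in control lungs. Its fold change of 2.4-fold (95% interval 0.876 to 6.58) rested on 24 h replicate 1, without which the difference was 0.21. The same array was highest for Myl1, another fast muscle light chain, with 9.85, 6.57 and 6.69 at 24 h and 6.90, 6.90 and 6.70 in control lungs. Summed over the 6 tested skeletal muscle genes, the signal was 3348, 910 and 884 units at 24 h and 1273, 1238 and 981 units in control lungs. Ckm, the muscle creatine kinase, stood at 1.32-fold (95% interval 0.655 to 2.65). Rptn, a repetin of stratified squamous epithelium, measured 9.42, 4.72 and 4.91 at 24 h and 5.39, 5.16 and 5.24 in control lungs, and the basal keratin gene Krt5, which did not pass the detection filter, had a signal of 204.6, 56.0 and 72.6 units at 24 h and 50.1, 24.4 and 31.5 units in control lungs. Without 24 h replicate 1 the difference was -0.02 for Myl1, -0.19 for Ckm and -0.34 for Rptn. The 24 h array of replicate 1 thus carried signal of skeletal muscle and squamous epithelium that no other array of the 6 had at that level.

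Other arrays stood apart for antibody genes. A dim probe set of Ighm, the mu heavy chain, measured 5.77, 8.69 and 5.09 at 24 h and 5.50, 5.68 and 5.17 in control lungs, and a brighter one measured 9.97, 12.01 and 9.56 at 24 h and 9.95, 9.29 and 9.32 in control lungs. Both were high on 24 h replicate 2 alone. A probe set with no gene name in the annotation measured 5.70, 6.66 and 5.47 at 24 h and 11.26, 5.84 and 5.42 in control lungs, high on control replicate 1 alone. Another without a gene name was high on 24 h replicate 1, with 9.69, 5.46 and 5.26 at 24 h and 5.52, 5.83 and 5.24 in control lungs. Of the 7 probe sets past 2-fold, Thrsp and Igha were the genes whose 3 pairs shared a sign, and each of the other 5 was set by 1 array.

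**Figure D4:**
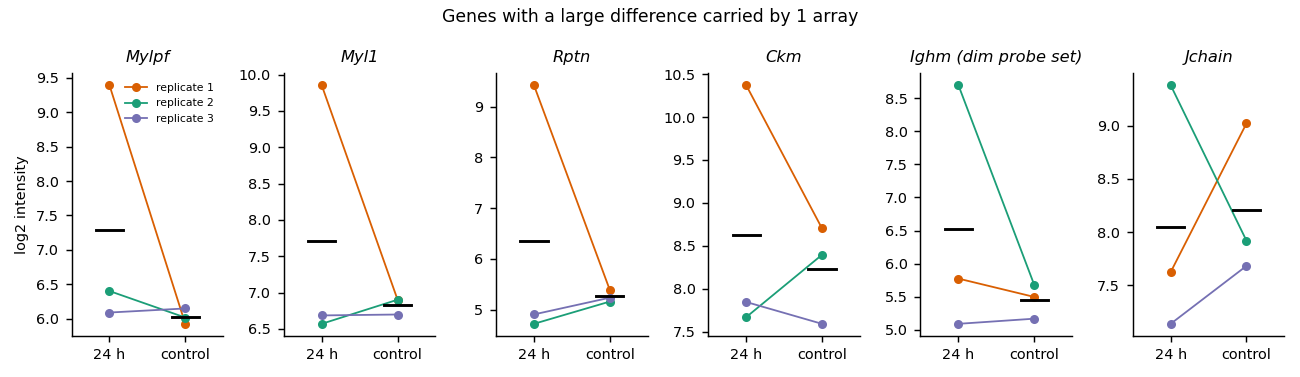
Log2 intensity of 6 genes on each array, 24 h on the left and control on the right; lines join arrays with the same replicate number and black bars are group means. Mylpf, Myl1, Rptn and Ckm are highest on 24 h replicate 1 (9.39, 9.85, 9.42 and 10.37), and the dim probe set of Ighm and Jchain on 24 h replicate 2 (8.69 and 9.38).

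Neutrophil markers were mostly below control and platelet markers mostly above it, with pairs of different sign. Of 13 tested neutrophil genes 12 were below 0 and 4 were lower in all pairs, against 10.5% of all genes. Their median was -0.182, with pair medians of 0.227, -0.575 and -0.177. Of 9 tested platelet genes 8 were above 0, against 50.6% of all genes, and 0 were higher in all pairs, against 11.2%. Their median was 0.171, with pair medians of 0.481, -0.389 and 0.393. Without control replicate 2 the neutrophil median was 0.0784, and over all alternatives the platelet median ran from -0.0696 to 0.369, turning below 0 without 24 h replicate 3, control replicate 1 or all replicate 1 arrays. S100a8, a calcium-binding alarmin of neutrophils, measured 12.35, 11.41 and 12.01 at 24 h and 12.06, 12.59 and 12.24 in control lungs. Its partner S100a9 measured 12.16, 11.44 and 11.74 at 24 h and 11.87, 12.32 and 11.98 in control lungs. Pair 1 lay above 0 and pairs 2 and 3 below it for both genes, and without control replicate 2 the differences were 0.078 for S100a8 and 0.12 for S100a9. Pf4, platelet factor 4, had pair differences of 0.44, -0.39 and 0.46 and Alox12, the platelet lipoxygenase, of 0.48, -0.33 and 0.44, and the Pf4 difference without single arrays ran from -0.0328 to 0.385. Chil3, a chitinase-like protein of alveolar macrophages, stood at 0.926-fold (95% interval 0.82 to 1.05). Alas2, the first enzyme of haem synthesis in red cell precursors, was higher in all pairs (0.32, 0.55 and 0.39) and was the 1 of 6 tested red cell genes that was, while the median of these was 0.0227 and their pair medians were 0.181, -0.237 and 0.167. The receptor kinase gene Kit stood at 0.924-fold (95% interval 0.745 to 1.15) and at 0.060 on the log2 scale without control replicate 2. The inflammatory cytokine Tnf and the receptor kinase Met were detected on 0 of the 6 arrays.

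The type I interferon list had a median of -0.0131 over 20 genes and pair medians of 0.224, -0.234 and -0.083, and over all alternatives the median ran from -0.159 to 0.0791. Oas2, an oligoadenylate synthetase, measured 6.26, 5.05 and 5.96 at 24 h and 6.25, 6.53 and 6.78 in control lungs, with the lowest value on 24 h replicate 2, where it was not detected; it passed the filter through the control arrays alone. In the interferon gamma and MHC list 19 of 26 genes were above 0 and 5 were higher in all pairs, against 50.6% and 11.2% of all genes. The median was 0.0453 and the pair medians were 0.0928, -0.0154 and -0.00805. Psmb9, an immunoproteasome subunit, measured 10.25, 10.11 and 10.03 at 24 h and 9.95, 9.99 and 9.92 in control lungs. Gbp6, a guanylate-binding protein, had pair differences of 0.02, -0.42 and -0.63. Car9, a carbonic anhydrase induced by hypoxia, measured 5.89, 6.20 and 5.40 at 24 h and 5.98, 6.48 and 6.54 in control lungs. Of 26 tested chemokine and cytokine genes 10 were above 0, and the median was -0.0596. In all pairs 2 were higher and 2 lower, against 11.2% and 10.5% of all genes. Among the higher was Ccl17, which attracts T cells (0.40, 0.42 and 0.30).

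**Figure D5:**
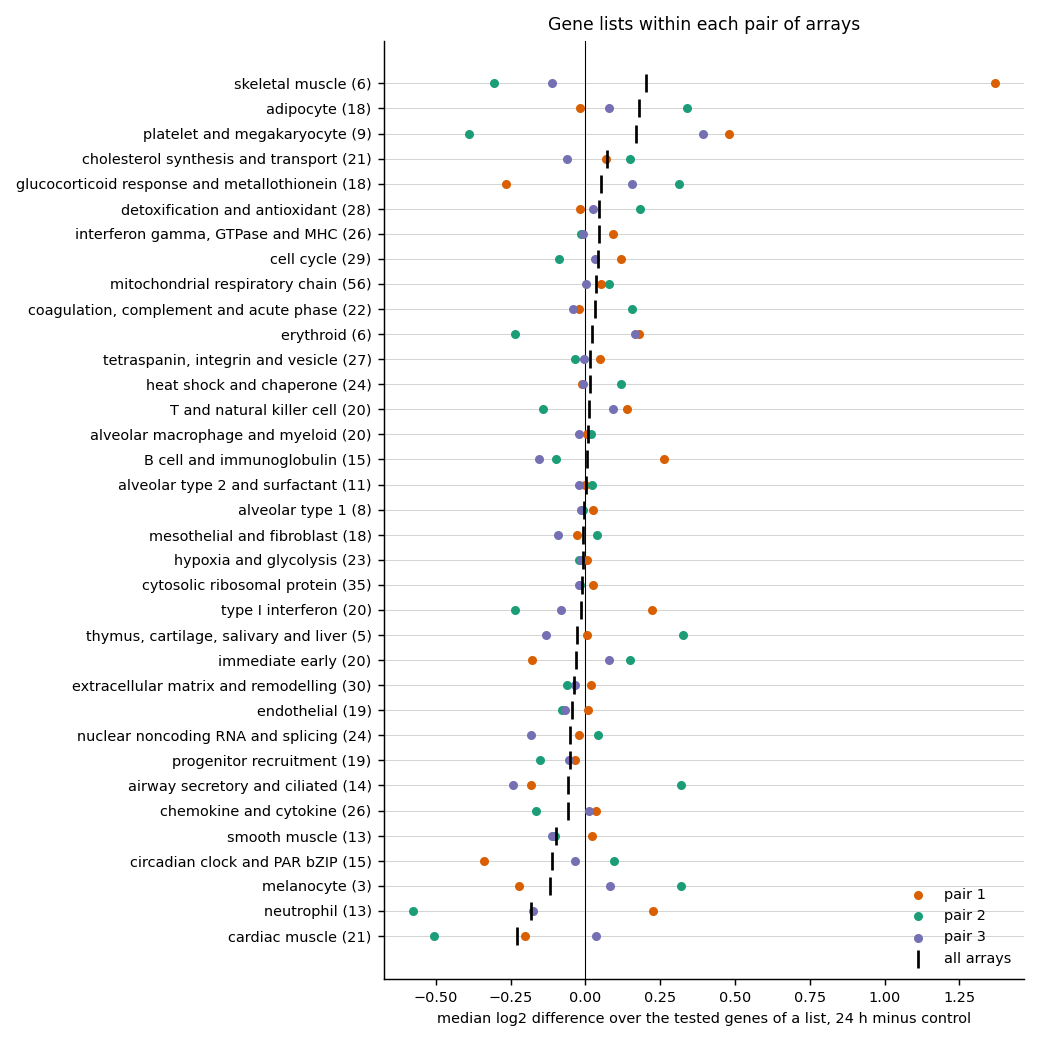
Median log2 difference, 24 h minus control, over the tested genes of each list with at least 3 of them (x axis), with the number tested in brackets. Coloured points are the 3 pairs and black marks the estimate from all arrays. The pairs of the alveolar, ribosomal and respiratory chain lists lie close to 0, those of skeletal muscle, neutrophil and platelet genes are spread widely, and those of cardiac muscle are below 0 in pairs 1 and 2.

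Respiratory chain genes were slightly above control: 42 of 56 were above 0, against 50.6% of all genes, and 14 were higher in all pairs, against 11.2%. The median was 0.0369 and the pair medians were 0.0517, 0.08 and 0.002. Uqcrq, a subunit of complex III, measured 10.99, 11.10 and 10.88 at 24 h and 10.86, 10.85 and 10.74 in control lungs, and Atp5h, of the ATP synthase, measured 12.33, 12.33 and 12.23 at 24 h and 12.20, 12.09 and 12.18 in control lungs. These were the 2 genes of the list with non-overlapping, higher values, against 2.13% of all genes. Atp5h's other probe set differed by -0.02. Ndufs8, of complex I, had 5 tested probe sets with differences from 0.06 to 0.29.

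The clock genes Dbp and Per3 differed more between replicates than between the groups. Dbp, a transcription factor under direct control of the clock, measured 9.24, 11.34 and 11.35 at 24 h and 9.63, 11.52 and 11.38 in control lungs. Per3, a period gene, measured 7.66, 9.85 and 10.06 at 24 h and 8.16, 9.85 and 10.12 in control lungs. Replicate 1 was low in both groups by more than 1 unit, and the pair differences were -0.39, -0.18 and -0.04 for Dbp and -0.50, -0.01 and -0.05 for Per3. The other Per3 probe set differed by 0.10, with pair differences of 0.53, -0.37 and 0.14. Nr1d1, the nuclear receptor that represses clock genes, was lower in all pairs (-0.28, -0.25 and -0.21). Over 15 clock genes the median was -0.112 with pair medians of -0.34, 0.094 and -0.0357. The median was 0.0814 or less in every alternative and above 0 without the replicate 1 array at 24 h or without all replicate 1 arrays.

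Genes tied to vesicles and to the cell cycle had small medians. Over 27 tetraspanin, integrin and vesicle genes the median was 0.0156, and it ran from -0.00875 to 0.0271 over all alternatives. Cd9, a tetraspanin of exosomes and epithelium, stood at 1.08-fold (95% interval 0.926 to 1.25). Sdcbp, the syntenin of exosome formation, had pair differences of 0.08, 0.18 and 0.19 and the sorting protein Tsg101 of 0.10, 0.23 and 0.20. Rab27a, a small GTPase of exosome release, was lower in all pairs by small amounts (-0.04, -0.15 and -0.11). Over 29 cell cycle genes the median was 0.0404, and -0.0733 without control replicate 1. Mcm2, of the replicative helicase, stood at 0.823-fold (95% interval 0.696 to 0.974) and Kif23, a kinesin of cytokinesis, at 1.2-fold (95% interval 0.98 to 1.47). Of 24 tested genes of nuclear noncoding RNA and splicing 9 were above 0, and 3 had an unadjusted p under 0.05, against 2.88% of all genes, with values lower at 24 h. They were Ddx6 and the snoRNA host genes Snhg1 and Snhg11. The brightest probe set of Snhg1 stood at 0.803-fold (95% interval 0.679 to 0.95), while another differed by 0.09. Snhg11 stood at 0.812-fold (95% interval 0.665 to 0.992).

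At 48 h, Thrsp, Cyp1a1, Igha and Lztr1 lay nearer to control than at 24 h, and Rbmx and Cdip1 did not. The difference from the same control arrays was 1.07 at 24 h and 0.19 at 48 h for Thrsp, and 0.42 at 24 h and 0.12 at 48 h for Cyp1a1. For Igha it was -1.07 at 24 h and -0.47 at 48 h, and for Lztr1 -0.92 at 24 h and -0.07 at 48 h. For Rbmx it was 0.43 at 24 h and 0.47 at 48 h, and for Cdip1 0.35 at 24 h and 0.73 at 48 h. These genes were chosen for their 24 h values, and both differences use the same controls. The change between the times was tested directly, and 0 of 15705 probe sets passed in limma (0%, lowest adjusted p 0.663), while 867 (5.52%) had an unadjusted p under 0.05. The log2 difference of 48 h minus 24 h was -0.88 for Thrsp, -0.38 for Cidea, -0.35 for Dgat2 and -0.38 for Me1. Against control, the 48 h difference was -0.06 for Cidea, -0.17 for Dgat2 and -0.24 for Me1 by their brightest probe sets. The other probe sets of Dgat2 and Me1 lay above control at 48 h, by 0.08 and 0.09. The sign at 48 h thus depended on the probe set for these 2 genes. For Col1a1 the difference of 48 h minus 24 h was 0.55, with the 48 h lungs 0.23 above control. The heart muscle list had a median of -0.229 at 24 h and -0.256 at 48 h, and the B cell list of 0.0041 at 24 h and -0.31 at 48 h. By array, the mean level of the heart muscle list was 9.25, 9.24 and 8.25 at 48 h and 9.30, 9.32 and 8.82 in control lungs. At 48 h replicate 3 was thus furthest below its control, while at 24 h pair 3 did not show the difference.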

How the data were processed

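Lung RNA had been hybridised to single-colour Affymetrix arrays. The labels name a larger chip than the 22690 probe sets of the files, so the chip type is uncertain. Each sample file deposited by the authors gives a scaled signal intensity and a detection p-value per probe set, per the file headers. The sources used here name no software. The authors' deposited series table was used only as an alternative, because each of its columns matched a file with another label within 0.051 units, 1 column at 22417 of 22690 probe sets and the others at every one.

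Signals were raised by 16, taken to log2 and quantile normalised. Probe sets with a detection p under 0.05 on all arrays at 24 h or of control were tested (14937 through both groups, 246 through 24 h and 522 through control alone), without 64 control probe sets. The offset understates folds of dim genes. Of the probe sets, 20393 had 1 gene symbol in the platform annotation, 691 had several and 1606 none. Each gene is represented by the brightest of its tested probe sets.

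The model (limma 3.58.1, R 4.3.3, two-sided, Benjamini-Hochberg) held all 9 arrays, group means and the replicate number as a block. Same-numbered arrays deviated together in all 9 pairs of arrays (r 0.28 to 0.655). Unlike-numbered arrays mostly did not, but replicate 2 arrays also deviated with control replicate 3 (0.312 at 24 h and 0.279 at 48 h). The code was tested on simulated data. The 20 leading genes by moderated t, the 20 largest differences among bright non-overlapping genes, and in each of 36 lists the first 2 genes and the 3 with the smallest p could be named. The members and the lists were chosen with earlier results of these data known. The number of arrays limits the precision.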

Additional observations from a re-analysis of the deposited data

How the results depend on the processing

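The call for single probe sets did not depend on the processing. In each alternative run, 0 probe sets passed, between 24 h and control or, where fitted, between 48 h and 24 h. The alternatives were no replicate block, the 6 arrays alone, offsets of 1 and 64, no quantile normalisation, no detection filter, detection in any of the 3 groups, and leaving out each array in turn or all replicate 1 arrays. The labels of the series table also gave 0 with 253 probe sets at an unadjusted p under 0.05, in a comparison of other files. Without the replicate block, 178 probe sets had an unadjusted p under 0.05, against 542 with it, and the block changed no call. The median standard error of the differences was 0.107 with the block and 0.153 without it. The intervals given here rest on the block and would mostly be wider without it. The number of non-overlapping probe sets was 1170 with no detection filter, where more probe sets entered, and between 1290 and 4499 with arrays left out, where fewer arrays had to be separated. Among 1358 recomputed values of the named genes, 19 turned in direction. Apart from Ager without quantile normalisation, these turned with arrays left out. With arrays left out the log2 difference ran from -0.442 to 0.0679 for Cd79a, -0.846 to 0.458 for Jchain, -0.235 to 1.03 for Ckm, -0.172 to 1.5 for Myl1 and -0.383 to 1.83 for Rptn. It ran from -0.203 to 0.0137 for Pecam1, -0.0598 to 0.0368 for Ager, -0.945 to 0.0784 for S100a8, -0.84 to 0.121 for S100a9, -0.0328 to 0.385 for Pf4 and -0.255 to 0.0596 for Kit. Ager was at 0.0517 without quantile normalisation. Of 35 gene lists, 26 changed the sign of their median under at least 1 alternative, and those of endothelial, cardiac muscle, smooth muscle, adipocyte, interferon gamma, chemokine, matrix, respiratory chain and progenitor genes did not. Thrsp, Cyp1a1 and Igha kept their direction in every alternative run on the sample files' labels, as most named genes did. They were named for an extreme moderated t and had pairs of one sign, so this gives no independent support. The cause of these shifts was not tested beyond the arrays named. Dim genes are limited by signal over background, and folds there are understated by the offset.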
